A study of Mus musculus with 6 samples.

Results

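The genes described here encode the enzymes that turn a primary microRNA (miRNA) transcript into a mature miRNA. They are Dicer1, its double-stranded RNA binding partners Tarbp2 and Prkra, the nuclear cropping pair Drosha and Dgcr8, the export receptor Xpo5 and the RNA editing enzyme Adar. Members were all probes that the platform annotation assigns to these 7 genes. It lists 9 probes for 6 of them, out of 21880 probes listed with a gene, and none for Tarbp2, which was not analysed here. Of the 9 probes, 8 were above background on all 6 arrays and entered the test, and 1 of the 2 probes of Xpo5 was flagged low on every array.

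The study compared RNA of mutant and control hearts of mouse embryos at embryonic day 11.5, biotin-labelled and hybridised to single-colour CodeLink arrays, with 3 arrays in each group. In the mutants a Cre knocked into the Nkx2.5 locus inactivated Dicer. The Cre acts in cells that have expressed Nkx2.5, a transcription factor of cardiac progenitors, so cells of a heart outside that lineage are not targeted. The sources used here do not give the genotype of the controls, the strain, the Dicer allele or how many embryos went into each array. The p-values below thus cover the spread among these 6 arrays, some of which may be technical.

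A miRNA gene is transcribed into a long primary transcript that folds into a hairpin. In the nucleus Drosha, a ribonuclease III, and its RNA-binding partner Dgcr8 together form the Microprocessor and crop the hairpin out. Exportin-5, encoded by Xpo5, carries the precursor to the cytoplasm together with Ran-GTP. Dicer, also a ribonuclease III, then cuts off the loop, aided by the proteins of Tarbp2 (TRBP) and Prkra (PACT), and leaves a duplex from which an Argonaute protein takes up a single strand. Adar changes adenosine to inosine in double-stranded RNA, miRNA precursors included. In the embryonic heart, miRNAs made by this route take part in muscle differentiation and chamber formation. To show where each cut falls, the hairpin of mouse Mirlet7g is given from RefSeq (GRCm38.p6, chr9:106178840-106178927, + strand), with the mature arms in capitals. Drosha cuts at the outer end of the arms and Dicer at the inner end, releasing the loop of 34 bases between them. No miRNA was measured in the values used here.
Mirlet7g hairpin: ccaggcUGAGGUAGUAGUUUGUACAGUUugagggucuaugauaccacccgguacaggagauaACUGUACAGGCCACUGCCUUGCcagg

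Between 74.1% and 78.2% of the 36227 spots on an array were above background. Between 184 and 263 spots per array were flagged saturated. Whether the brightest markers named below, cardiac or erythroid, were among them was not examined. Levels are given below as the authors' normalized intensity, which is linear, or as the log2 level after background correction and quantile normalization of this work. The first principal component of the tested probes held 54.1% of the variance and did not follow the groups: mutant 2, control 3 and mutant 1 scored -30.1, -20.8 and -18.3, and mutant 3, control 2 and control 1 scored 5.63, 26.3 and 37.3. The heart label was checked on cardiomyocyte genes. All 14 such genes listed on the platform were tested and none passed, 7 lying above 0 and 7 below. Most were bright, such as Actc1 (cardiac actin) at a mean log2 level of 15.1 in both groups, whereas Myh6 had 6.54 in the mutants and 6.25 in the controls and Ryr2 6.53 and 6.65. The smallest p of the list was that of Myl3 (a ventricular myosin light chain), lower on every mutant than on any control array at a log2 difference of -0.78 ± 0.10 (SE, limma adjusted p = 0.0836). Tnni3 (cardiac troponin I) followed at 0.41 ± 0.16 (SE, limma adjusted p = 0.473). Across all 17727 tested probes 9 passed limma's test at an adjusted p under 0.05 (0.0508%), 4 of them lower in the mutants (0.0226%) and 5 higher (0.0282%).

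Dicer1, the gene inactivated in the mutant, was lower in all 3 mutant arrays and was the only one of the 6 measured genes to pass, where 0.0226% of all tested probes passed as lower and 0.0282% as higher. Its normalized intensity was 0.684, 0.702 and 0.681 in mutants 1, 2 and 3, and 2.33, 1.97 and 2.04 in controls 1, 2 and 3. The 3 mutant arrays lay close together, and every one was far below every control. The mutant mean was 0.689 ± 0.0115 and the control mean 2.11 ± 0.193 (SD, n = 3 each), a ratio of 0.326. On the log2 scale the levels were 6.72 ± 0.03 and 7.72 ± 0.10 (SD, n = 3 each), and the mutant minus control difference was -1.00 ± 0.09 (SE, limma adjusted p = 0.036). That difference corresponds to 0.498 of the control level, with a 95% interval of 0.429 to 0.579. The offset of 50 intensity units that the background correction adds to every spot draws a dim probe's log ratio towards 0. With an offset of 0 the log2 difference was -1.55 (limma adjusted p = 0.0442).

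The remaining Dicer1 signal was low but above background. The subtracted intensity was 56.6, 55.1 and 45.0 units in the mutants, over local backgrounds of 35, 42 and 39 units. In the controls it was 171, 158 and 153 units over 37, 41 and 37 units. Among all spots flagged good, the lowest normalized intensity per array was between 0.181 and 0.247. Probe 31325 is listed with the transcript NM_148948. Its place in that transcript, inside or outside the stretch that Cre removes, is unknown here, so the probe may not be a check of the labels. In a dissected heart, fewer cells that express a gene and less RNA per cell cannot be told apart.

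**Figure D1:**
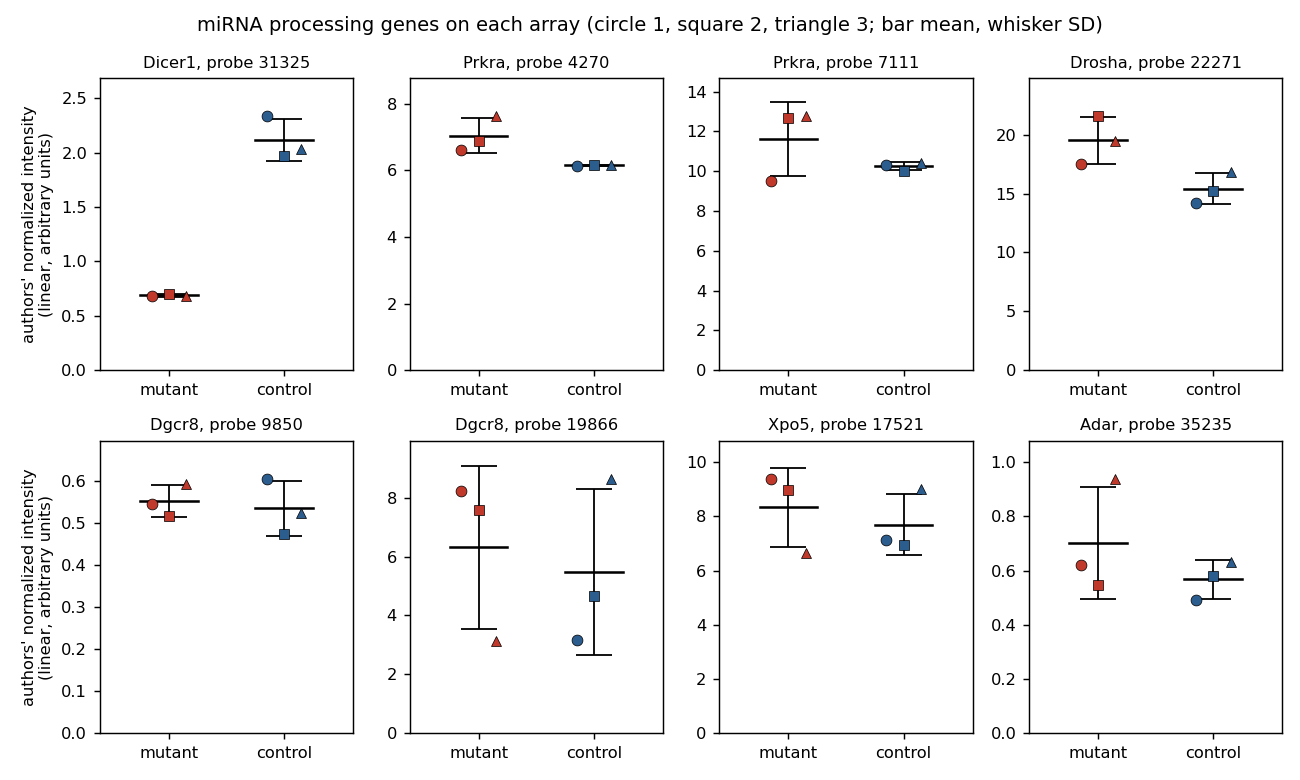
Normalized intensity as deposited by the authors (linear axis from 0, arbitrary units) of the 8 tested member probes, red for mutant and blue for control arrays, with the mean (bar) and SD (whisker) of 3 arrays. Dicer1 is near 0.69 in all mutants and near 2.1 in the controls, Drosha and Prkra probe 4270 are higher on every mutant array than on any control array, and on the other 5 probes the groups overlap.

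The size of the Dicer1 difference was similar whichever arrays were set against each other, whereas its call was not stable. Within the 3 pairs that share a number in the array titles, the mutant to control ratio of normalized intensity was 0.293, 0.356 and 0.334. On the slide that the start of the titles appears to name, which held mutants 1 and 2 and control 1, the log2 difference was -1.09. Leaving out any array kept the log2 difference between -1.05 and -0.95. The call was kept without control 3 (limma adjusted p = 0.0427) and lost without mutant 1, mutant 2, mutant 3, control 1 or control 2, at adjusted p of 0.188, 0.325, 0.0661, 0.188 and 0.310.

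The median deviations of 2 other cell-type lists, endothelial and smooth muscle, did not overlap between the groups. Of 11 tested endocardial and endothelial genes, 10 had a difference below 0 and none passed. The list's median log2 deviation was -0.15, -0.01 and -0.03 on mutants 1, 2 and 3 and 0.05, 0.07 and 0.08 on controls 1, 2 and 3. Its summed normalized intensity was 104 to 124 in the mutants and 121 to 130 in the controls, and of the 13 genes listed on the platform 1 was not above background on any array. All 5 tested smooth muscle genes had a difference above 0, with deviations of 0.12, 0.24 and 0.13 on mutants 1, 2 and 3 and -0.07, -0.12 and -0.14 on controls 1, 2 and 3, and none passed. Their summed intensity was 252 to 345 in the mutants and 242 to 279 in the controls. Of 9 tested epicardial genes 7 lay below 0, none passing. Their median deviations overlapped, at -0.11, -0.10 and -0.098 on mutants 1, 2 and 3 and 0.08, 0.18 and -0.0996 on controls 1, 2 and 3, while their summed intensity was 104 to 129 in the mutants and 137 to 198 in the controls. For the cardiomyocyte, cushion mesenchyme, neural, liver and leukocyte lists the deviations of mutant and control arrays overlapped, and no gene passed. The part of these markers in the Dicer1 difference was not tested.

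By a rule on likeness alone, 5 genes with names other than clone names followed Dicer1 most closely over the 6 arrays. They are a description of 6 arrays that share their groups, chosen among 13717 genes. The Pearson correlation of the log2 level with that of Dicer1 was 0.99 for Cmtm7, 0.99 for Txlnb, 0.99 for Cdkl1, 0.98 for Lmo1 and 0.98 for Nts. Txlnb encodes the muscle protein beta-taxilin, Cdkl1 a kinase related to cyclin-dependent kinases, Lmo1 a LIM-domain transcription cofactor and Nts the peptide neurotensin. Each of the 5 was lower in all mutant arrays than in any control array, as were 5.5% of all genes by their brightest probe. The choice by likeness to Dicer1, itself lower in all mutant arrays, favours such genes. The log2 difference was -0.46 for Cmtm7, -0.45 for Txlnb, -0.73 for Cdkl1 and -0.24 for Lmo1, with adjusted p from 0.0836 to 0.383. That of Nts was -1.03 (limma adjusted p = 0.0474).

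Promoters of the 4 members on which the results turn are given from RefSeq (GRCm38.p6), as the 250 bases before the annotated start, written along the gene. Dicer1 lies at chr12:104751953-104752202 (- strand), Drosha at chr15:12824565-12824814 (+ strand), Dgcr8 at chr16:18289169-18289418 (- strand) and Xpo5 at chr17:46202561-46202810 (+ strand). They are shown because Dicer1 is the gene that passed and Drosha is a gene whose mutant arrays all lay above the controls on its sole probe. Dgcr8 and Xpo5 are shown because the brighter Dgcr8 probe and the tested Xpo5 probe were high and low on the same arrays. Capitals mark matches on either strand to the GC box GGGCGG, the CCAAT box CCAAT and the core CGCATGCG of the NRF1 site.
Dicer1: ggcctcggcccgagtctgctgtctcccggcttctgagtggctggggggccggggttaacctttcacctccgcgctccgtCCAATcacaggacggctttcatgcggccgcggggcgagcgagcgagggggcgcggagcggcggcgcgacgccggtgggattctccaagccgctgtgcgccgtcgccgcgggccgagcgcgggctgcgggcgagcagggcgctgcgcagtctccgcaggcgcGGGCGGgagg
Drosha: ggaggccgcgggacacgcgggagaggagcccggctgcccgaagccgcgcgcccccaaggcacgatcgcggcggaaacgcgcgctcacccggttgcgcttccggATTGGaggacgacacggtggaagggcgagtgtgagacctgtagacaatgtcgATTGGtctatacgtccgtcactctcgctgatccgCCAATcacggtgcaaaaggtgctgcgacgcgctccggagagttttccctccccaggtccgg
Dgcr8: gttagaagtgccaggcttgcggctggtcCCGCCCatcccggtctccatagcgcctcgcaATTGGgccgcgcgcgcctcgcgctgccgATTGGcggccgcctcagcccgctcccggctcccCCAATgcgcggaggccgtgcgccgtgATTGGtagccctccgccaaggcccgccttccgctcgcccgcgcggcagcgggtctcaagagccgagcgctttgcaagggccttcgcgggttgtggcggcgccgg
Xpo5: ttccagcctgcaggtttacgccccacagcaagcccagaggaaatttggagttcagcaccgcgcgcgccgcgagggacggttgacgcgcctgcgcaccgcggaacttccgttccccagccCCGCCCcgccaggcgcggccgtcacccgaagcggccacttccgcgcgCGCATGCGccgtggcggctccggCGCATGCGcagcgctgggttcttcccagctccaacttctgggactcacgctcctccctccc

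Matches to these letters are a description of the windows. The Dicer1 window held 1 CCAAT box and 1 GC box, the Drosha window 3 CCAAT boxes, and the Dgcr8 window 4 CCAAT boxes and 1 GC box. The Xpo5 window held 2 NRF1 cores, beginning 84 and 61 bases before the start, and 1 GC box. The matches did not overlap. Among 32851 windows of the same length in the table, 32.7% held the GC box, 33.8% the CCAAT box and 1.55% the NRF1 core, which reads the same on both strands and was counted once. The TATA box TATAAA, held by 12.4% of them, was in none of the 4 windows, nor was the E-box CACGTG, held by 6.02%.

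Drosha, the nuclear ribonuclease that crops the primary transcript, was higher on every mutant array than on any control array, but the difference did not pass. Its normalized intensity was 17.5, 21.6 and 19.5 in mutants 1, 2 and 3, and 14.2, 15.2 and 16.8 in controls 1, 2 and 3. The closest arrays of the 2 groups were mutant 1 and control 3. The log2 difference was 0.31 ± 0.11 (SE, limma unadjusted p = 0.0276, adjusted p = 0.415), or 1.24-fold with a 95% interval of 1.03 to 1.48. Of all tested probes 10% had an unadjusted p under 0.05. The difference was positive within each title pair, at 0.34, 0.43 and 0.16. On the slide that the titles appear to name it was 0.44. It stayed between 0.24 and 0.38 when arrays were left out. It passed in 1 of 23 alternatives, with arrays weighted by their fit (0.36, limma adjusted p = 0.0221), when 4230 of all 17727 probes passed.

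In total 2 of the 8 tested member probes were higher without overlap, against 9.89% of all tested probes, and 1 was lower without overlap, against 5.3%. Besides Drosha, the other probe on the higher side was 1 of the pair for Prkra.

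Prkra, the activator of the kinase PKR that also binds Dicer, gave small positive differences on both probes. Probe 4270 read 6.61, 6.89 and 7.61 on mutants 1, 2 and 3 and 6.12, 6.16 and 6.15 on controls 1, 2 and 3 (normalized intensity), so the controls were tightly grouped below all mutants. Its log2 difference was 0.16 ± 0.09 (SE, limma adjusted p = 0.579). Probe 7111, the brighter, read 9.48, 12.7 and 12.7 on mutants 1, 2 and 3 and 10.3, 10.02 and 10.4 on controls 1, 2 and 3, and mutant 1 lay below all controls. Its log2 difference was 0.14 ± 0.13 (SE, limma adjusted p = 0.714), and it was 0.27 without mutant 1 (limma adjusted p = 0.546), 0.087 without mutant 2 and 0.074 without mutant 3. The 95% intervals were -0.05 to 0.37 for the first and -0.16 to 0.45 for the second.

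Dgcr8, the partner of Drosha, varied more between arrays than between groups. Probe 19866 read 8.23, 7.61 and 3.14 in mutants 1, 2 and 3, and 3.17, 4.66 and 8.64 in controls 1, 2 and 3 (normalized intensity). Mutants 1 and 2 and control 3 were high, and mutant 3 and controls 1 and 2 low, so the groups overlapped over almost their whole range. The log2 difference was 0.18 ± 0.43 (SE, limma adjusted p = 0.904), with a 95% interval of -0.86 to 1.22, or 0.553-fold to 2.33-fold. Within title pairs the difference was 1.23, 0.63 and -1.32. It reached 0.93 without mutant 3 and control 3 (limma adjusted p = 0.0102), when 3920 of all 17727 probes passed. With the inferred slide as a block the difference was 1.17, which rests on mutants 1 and 2 and control 1. It turned to -0.05 without mutant 1 and to -0.11 without control 1. The other probe, 9850, carries the same transcript accession (NM_033324) and was flat, between 0.474 and 0.603 on all 6 arrays, with a log2 difference of 0.03 ± 0.09 (SE, limma adjusted p = 0.923). The 2 probes of Dgcr8 differed in their spread over the arrays, and the flat one was the dimmer.

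The Dgcr8 gene holds miRNA hairpins of its own, and the Microprocessor is known to cut hairpins in the Dgcr8 transcript. The RefSeq mature miRNAs within the gene on its strand (chromosome 16, GRCm38.p6) are listed with the seed, bases 2 to 8, in capitals, because they lie within a member's own gene. The seeds of the 4 differ.
mmu-miR-1306-5p, chr16:18284288-18284310: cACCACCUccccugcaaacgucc
mmu-miR-1306-3p, chr16:18284248-18284268: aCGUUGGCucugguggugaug
mmu-miR-3618-5p, chr16:18284602-18284623: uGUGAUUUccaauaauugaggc
mmu-miR-3618-3p, chr16:18284562-18284583: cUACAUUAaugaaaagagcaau

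Xpo5, the export receptor, was high and low on the same arrays as the brighter probe of Dgcr8. Probe 17521 read 9.38, 8.98 and 6.67 in mutants 1, 2 and 3, and 7.15, 6.95 and 9.01 in controls 1, 2 and 3 (normalized intensity). Mutants 1 and 2 and control 3 formed the upper group and the other arrays the lower, and mutant 3 was the lowest of all. The log2 difference was 0.09 ± 0.16 (SE, limma adjusted p = 0.872), with a 95% interval of -0.30 to 0.48. It was 0.35 without mutant 3 and control 3 (limma adjusted p = 0.0453), when 3920 of all 17727 probes passed, and -0.0025 without mutant 1. Probe 31988 read between 0.0637 and 0.160 and was not well above background on any array, so it gives no fold.

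The 3 arrays on which the brighter Dgcr8 probe and the tested Xpo5 probe were high also had the 3 lowest scores on the first principal component. The erythroid marker list was ordered in much the same way: its median log2 deviation was -0.16, -0.17 and 0.03 on mutant 2, control 3 and mutant 1, and -0.04, 0.22 and 0.37 on mutant 3, control 2 and control 1. Of its 11 tested genes, 9 had a mutant minus control difference below 0, none passed, and all were listed and above background. Their summed normalized intensity ranged from 1537 to 1847 in the mutants and from 1568 to 1986 in the controls. The cardiomyocyte list separated the same arrays in the other direction. Its median log2 deviation was 0.16, 0.34 and 0.05 on mutant 2, control 3 and mutant 1. On mutant 3, control 2 and control 1 it was -0.04, -0.01 and -0.30. The part of these markers in the Dgcr8 and Xpo5 levels was not tested.

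**Figure D2:**
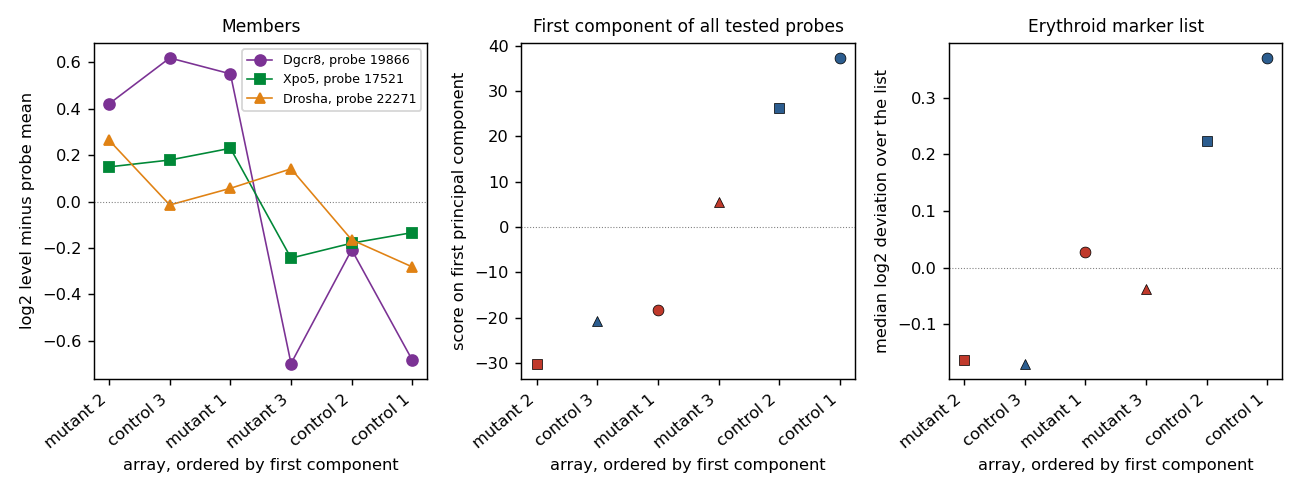
Arrays ordered by their score on the first principal component. Left, log2 level minus the probe's mean for the brightest probe each of Dgcr8, Xpo5 and Drosha. Middle, the score itself. Right, the median log2 deviation of 11 erythroid genes. In the middle and right panels red marks mutants and blue controls (circle 1, square 2, triangle 3). Dgcr8 and Xpo5 are above their mean on mutant 2, control 3 and mutant 1 and below it on the other arrays, whereas Drosha is above its mean on all 3 mutants.

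Adar, the editing enzyme, gave overlapping groups at a low signal. Probe 35235 read 0.622, 0.548 and 0.938 on mutants 1, 2 and 3 and 0.490, 0.580 and 0.633 on controls 1, 2 and 3 (normalized intensity). Mutant 3 was the highest and the other arrays lay close together. The log2 difference was 0.15 ± 0.12 (SE, limma adjusted p = 0.696), with a 95% interval of -0.15 to 0.44, and it was 0.04 without mutant 3. The Adar gene has a constitutive and an interferon-inducible promoter, and which transcript the probe reads is not known here.

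**Figure D3:**
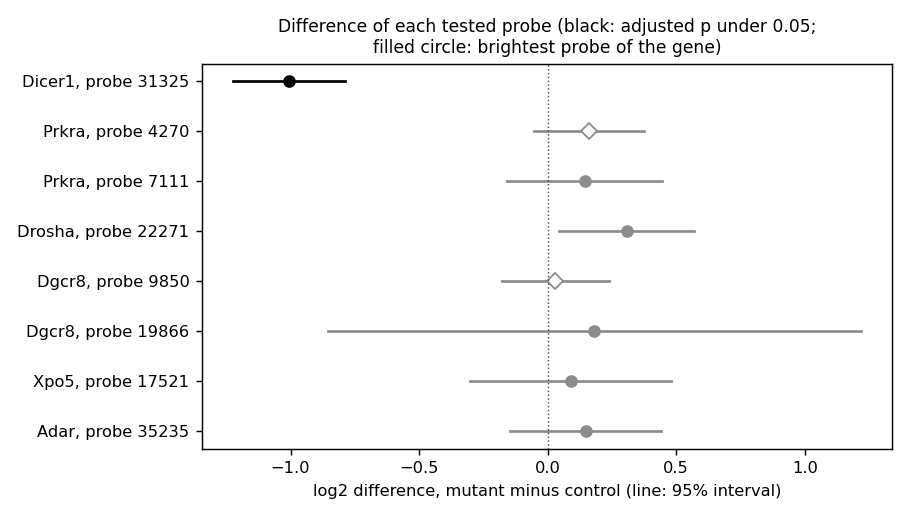
Log2 difference (mutant minus control, horizontal axis) of each tested member probe with its 95% interval from limma; black marks an adjusted p under 0.05, a filled circle the brightest probe of a gene and an open diamond its other probe. The interval of Dicer1 runs from -1.22 to -0.79, that of Drosha from 0.05 to 0.57, and the intervals of the other 6 probes include 0.

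The rest of the small RNA pathway was described with 6 lists of 73 genes, of which 60 were tested by their brightest probe. None passed limma's test, against 0.06% of all 15012 genes, and 10 had an unadjusted p under 0.05 (9 higher and 1 lower), which is 16.7%, against 10.2% of all genes. On sign alone 47 of the 60 lay above 0 (78.3%, median 0.15), against 52.4% of all genes (median 0.01). With each array left out in turn, 42 to 48 lay above 0 and the median ranged from 0.12 to 0.21. Without control 3, 3 of them passed (Tnrc6a, Ago3 and Lin28b), when 320 of all 17727 probes did, and 16 passed without mutant 3 and control 3, when 3920 of all probes did. The groups did not overlap in 17 genes on the higher side (28.3%), against 9.73% of all genes, and in 1 on the lower side, against 5.5%. The lists were chosen with earlier results of these data known, so these shares describe the lists and are no independent result.

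The silencing effectors, which use the miRNA once Dicer has made it, had the highest median of the 6 lists, 0.27 over 9 tested genes, with 8 above 0 and 4 at an unadjusted p under 0.05. Tnrc6a, a GW182 scaffold protein, had log2 levels of 11.02, 11.02 and 10.59 on mutants 1, 2 and 3 and 9.46, 9.52 and 10.06 on controls 1, 2 and 3. Mutant 3 and control 3 were the closest pair between the groups. The log2 difference was 1.20 ± 0.20 (SE, limma adjusted p = 0.138), and it was 1.39 without control 3 (limma adjusted p = 0.0427). Mov10, an RNA helicase bound to Argonaute, gave 0.50 ± 0.12 (SE, limma adjusted p = 0.235). The Argonaute genes gave differences of 0.01 for Ago1, 0.26 for Ago2, 0.69 for Ago3 and -0.02 for Ago4, none passing.

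The list of Microprocessor partners also held the let-7 regulators Lin28a and Lin28b. Of its 12 tested genes, 11 lay above 0 with a median of 0.10. That median was 0.064 without mutant 1, 0.057 without control 2, 0.20 without mutant 3 and 0.17 without control 3. Lin28a, which blocks let-7 maturation by binding its precursor, gave 0.57 ± 0.13 (SE, limma adjusted p = 0.216), with log2 levels of 8.31, 8.44 and 8.06 on the mutant arrays against 7.83, 7.68 and 7.61 on the control arrays. Its relative Lin28b lay the other way, at -0.65 ± 0.40 (SE, limma adjusted p = 0.614). Mutants 1, 2 and 3 read 8.46, 8.13 and 8.48 on the log2 scale and controls 1, 2 and 3 read 9.57, 9.43 and 8.01, so control 3 lay below every mutant. Without control 3 the difference was -1.14 (limma adjusted p = 0.0447). Mettl3, the methyltransferase that marks primary transcripts, gave 0.23 ± 0.10 (SE, limma adjusted p = 0.530).

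Nuclear export genes were spread around a median of 0.09 over 11 tested genes, 8 of them above 0. That median was 0.052 without mutant 1, 0.057 without mutant 2, 0.054 without control 1 and 0.17 without mutant 3. Xpo7, an exportin abundant in red cell precursors, gave -0.69 ± 0.29 (SE, limma adjusted p = 0.495), and its dimmer probe gave -0.06. Xpo1, the general export receptor, gave 0.26 ± 0.12 (SE, limma adjusted p = 0.524), and its dimmer probe -0.45. Ran, whose GTP form loads Exportin-5, gave 0.16 ± 0.17 (SE, limma adjusted p = 0.776).

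Among 11 tested genes of tailing, trimming and decay the median was 0.11, with 9 above 0, and it was 0.17 without control 3. Tut4, a terminal uridylyltransferase that works with Lin28a on let-7 precursors, gave -1.04 ± 0.44 (SE, limma adjusted p = 0.508). Mutants 1, 2 and 3 read 10.01, 9.74 and 11.18 on the log2 scale and controls 1, 2 and 3 read 11.72, 11.67 and 10.66, so that mutant 3 lay above control 3, and its dimmer probe gave 0.03. Eri1, an exonuclease, gave 0.30 ± 0.14 (SE, limma adjusted p = 0.531).

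Of 7 tested double-stranded RNA binding proteins outside the members, 3 lay above 0, and the median was -0.09. The median was 0.02 without control 1 and 0.11 without control 3, and -0.043 without mutant 2. Stau2, an RNA transport protein, gave 0.58 ± 0.15 (SE, limma adjusted p = 0.254), while its dimmer probe gave -0.01. Strbp gave 0.31 ± 0.12 (SE, limma adjusted p = 0.480). Adarb1, the other editing enzyme measured, gave -0.09 and Eif2ak2, the kinase PKR that Prkra activates, -0.13, neither passing.

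Interferon-stimulated genes, to which the long form of Adar belongs, had a median of 0.23 over 10 tested genes, 8 of them above 0 and none passing. The list's median deviation was 0.37 on mutant 1, -0.01 and -0.07 on mutants 2 and 3, and -0.15, -0.13 and -0.09 on controls 1, 2 and 3. Without mutant 1 the median difference was 0.075. Bst2, an interferon-induced membrane protein, gave 0.98 ± 0.17 (SE, limma adjusted p = 0.139), with log2 levels of 10.32, 9.75 and 10.16 on the mutant arrays against 9.09, 8.96 and 9.23 on the control arrays. Irf1, a transcription factor, gave 0.30 ± 0.10 (SE, limma adjusted p = 0.385). Isg15 and Ifit2 lay below 0, at -0.11 and -0.04.

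**Figure D4:**
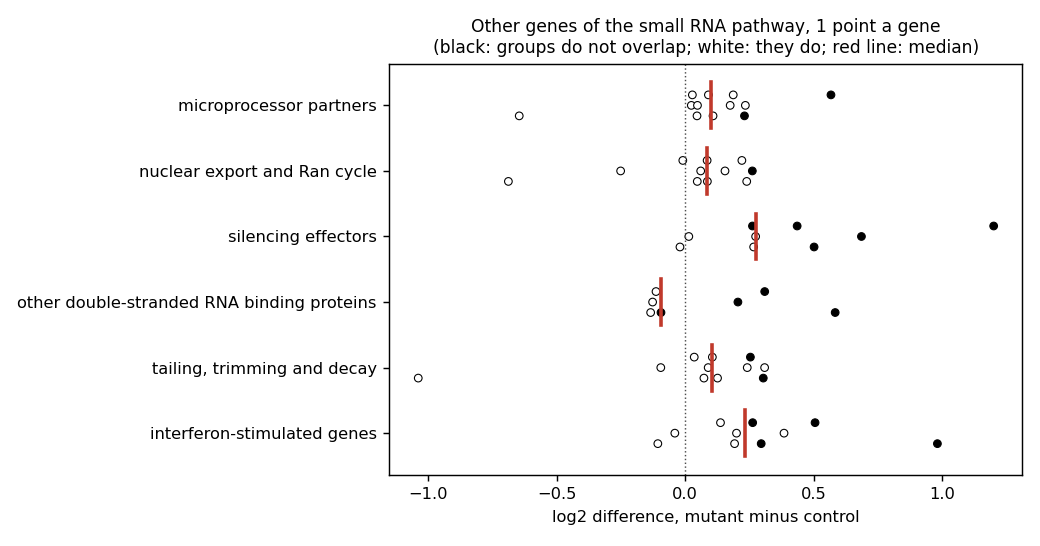
Log2 difference (mutant minus control) of the brightest tested probe of 60 genes in 6 lists, 1 point a gene, black where the groups do not overlap, with each list's median as a red line. Most points lie right of 0, in lists chosen with earlier results of these data known. The silencing effectors have a median of 0.27 and the other double-stranded RNA binding proteins one of -0.09.

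The plot of alternatives sets Dicer1 beside Drosha under every processing tried. Dicer1 was below 0 in all 23 and Drosha above 0 in all 23. Their calls differed: Dicer1 passed in 15 of them and Drosha in 1.

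**Figure D5:**
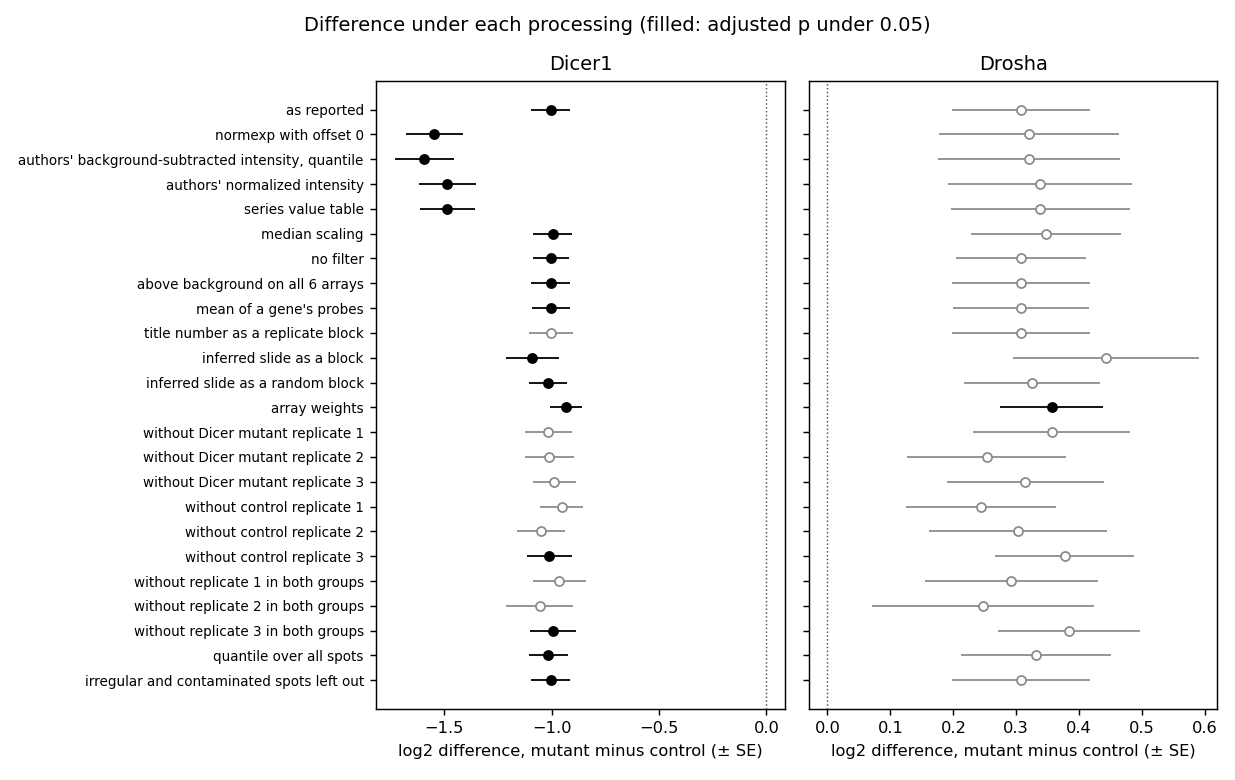
Log2 difference (mutant minus control, ± SE) of Dicer1 (left) and Drosha (right) as reported and under 23 alternatives; filled points passed at an adjusted p under 0.05. The 4 leftmost Dicer1 values, from -1.59 to -1.49, are those without the offset of 50.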

How the data were processed

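Per the labels, 3 mutant and 3 control arrays were biotin-labelled by the CodeLink protocol; no scanner or software is named there. The deposited files hold, as intensity, each spot's mean, local background median, subtracted intensity and the authors' normalized intensity. The last equalled the subtracted intensity divided by a factor constant within an array (66.1 to 82.8); the series table repeats it on spots flagged good. Spot means were corrected with normexp (offset 50, all spots), put on a log2 scale and quantile-normalized over the 21880 listed probes in limma 3.58.1 (R 4.3.3). Unlisted spots, among which controls are not marked, were left out, as were masked spots. Probes above background on at least 3 arrays were tested with lmFit and eBayes, two-sided, Benjamini-Hochberg over 17727 probes. The test was tried on simulated data. Named genes were all members, from each pathway list those that passed or else the 2 of smallest p, and the 5 most like Dicer1; other pathway genes and all cell-type markers named were named after their values were seen. Members and lists were chosen with earlier results of these data known. The number of arrays limits the precision. Same-numbered arrays did not deviate together (correlations 0.01, -0.48 and -0.38), and no pairing was used in the main test. Deviations from the means of 3 arrays are not independent, so these values cannot exclude a pairing.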

Additional observations from a re-analysis of the deposited data

How the results depend on the processing

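Among 23 alternatives, 2 of them (irregular and contaminated spots left out, quantile over all spots) chosen after seeing the data, Dicer1 kept its direction in all and its call in 15. With the title number as a replicate block its difference was -1.00 and the call was lost (limma adjusted p = 0.517); 0 members and 0 probes passed, and 1322 probes had an unadjusted p under 0.05. Leaving out single arrays, Dicer1 ranged from -1.05 to -0.95, members that passed from 0 to 1, pathway genes from 0 to 3 and all probes from 0 to 320, the highest counts without control 3; 841 to 3719 probes had an unadjusted p under 0.05. Leaving out a title number in both groups, Dicer1 ranged from -1.06 to -0.96, members from 0 to 3, pathway genes from 0 to 16 and all probes from 0 to 3920, the highest counts without mutant 3 and control 3. The 9 probes became 4 with an offset of 0, 5 with the subtracted intensity, 5 with the authors' normalized intensity, 5 with the mean of a gene's probes, 1338 with the inferred slide as a block (2 members, 5 pathway genes) and 4230 with array weights (2 members, 19 pathway genes).

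Dgcr8 reversed sign when arrays were left out singly (-0.11 to 0.58) or by title number (-0.34 to 0.93, and -0.041 without number 2), as did Xpo5 (-0.0025 to 0.23 singly; -0.047 to 0.35 by number, and -0.030 without number 2). The dim Dgcr8 probe also did (-0.0026 to 0.071 singly, and -0.063 with the slide block). Prkra (0.07 to 0.27) and Adar (0.04 to 0.30) kept their sign over all alternatives. List medians without each array were also added after seeing the data. The cause was not tested. Signal over background limits Adar, the dim Dgcr8 probe and Dicer1 in the mutants.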
